A study of Mus musculus with 2 samples.

Results

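The genes described here are the 3 ligands of transforming growth factor beta (Tgfb1, Tgfb2 and Tgfb3), their 3 receptors (Tgfbr1, Tgfbr2 and Tgfbr3) and the 4 latent TGF-β binding proteins (Ltbp1, Ltbp2, Ltbp3 and Ltbp4). They were taken by gene symbol, and all 10 were found among the 37309 genes of the deposited table. They were measured by RNA sequencing in cultured intestinal subepithelial myofibroblasts (ISEMFs), the contractile fibroblast-like cells that lie under the gut epithelium. One population, called supportive, was grown from the small intestine of neonatal C57BL/6 wild-type mice 5 days old and is named for its support of crypt growth without added R-spondin1. The other, called non-supportive, was grown in the same way from adult C57BL/6 wild-type mice 2 months old. Each population is 1 library, so no difference has a replicate check, no p-value is given, and the type of ISEMF cannot be told apart from mouse age or from the isolation itself. The deposited names also carry a different P code for each culture, which may be a passage number although no source used here says so, and this too cannot be told apart from the type of ISEMF. The methods of the study speak of mice and its discussion of an adult mouse for the non-supportive cells, with no count of animals per culture. The culture medium of both held fetal bovine serum and epidermal growth factor.

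TGF-β is made as a precursor whose cut-off propeptide stays wrapped around the growth factor and keeps it inactive. Most fibroblasts secrete this latent complex bound to a latent TGF-β binding protein, which ties it to fibrillin and fibronectin in the matrix until integrins or proteases release it. Free TGF-β binds the type II receptor kinase (Tgfbr2), which activates the type I receptor kinase (Tgfbr1) and through it the transcription factors Smad2 and Smad3. In the gut, TGF-β is known for restraining epithelial growth and for driving fibroblasts toward the myofibroblast state and toward matrix production.

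Reads on genes numbered 50674472 for supportive and 49615497 for non-supportive ISEMFs. Of these, 62856 (0.124%) and 77005 (0.155%) lay on the 10 genes. Reads from the mitochondrial chromosome made 14.6% and 7.85% of the reads on genes. Levels are given as RPKM, a read count scaled to exon length and library size. Ratios are of supportive over non-supportive RPKM. Their intervals, and those of the levels, are 95% exact intervals from the read counts and cover counting error only, since reads made by PCR without molecular identifiers are not independent molecules. In these bulk samples, fewer cells of a type and less RNA per cell cannot be told apart. All 6 myofibroblast markers reached an RPKM of 1, with Acta2 at 908 in supportive and 1410 in non-supportive ISEMFs, and 2 of them (Des and Cnn1) were 2-fold lower in supportive ISEMFs. Of the 5 smooth muscle markers that reached an RPKM of 1, 0 were 2-fold higher and 3 (Des, Cnn1 and Myh11) were 2-fold lower, and the whole list summed to 358 in supportive and 593 in non-supportive ISEMFs. Des was 5.92-fold, Myh11 4.11-fold and Cnn1 2.37-fold lower. Other markers of this list went the other way, and they are named after their values were seen. Smtn was at 4.88 against 3.16. Myocd, under an RPKM of 1 in both, had 591 reads in supportive and 37 in non-supportive ISEMFs, a ratio of 15.5 (interval 11.1 to 22.3). Of 9 macrophage and myeloid markers, 7 reached an RPKM of 1 in either library and all 7 were at least 2-fold lower in supportive ISEMFs. Their summed RPKM over the 9 markers was 6.95 there and 124 in the non-supportive library, with 0 reads for Ptprc, Emr1, Tyrobp and Itgam in the supportive library. Of 5 pericyte markers 3 reached an RPKM of 1, with Pdgfrb at 28.1 against 7.67 and Rgs5 at 0.578 against 2.37. Among glial and neuronal markers S100b was at 6.69 against 0.116, while Sox10 had 0 reads in both. Among epithelial markers Lgr5 was at 7.22 against 0.00443 and Krt20 at 0.0799 against 3.13. The others stayed under an RPKM of 1 in both. Of these, Cdh1 had 159 reads in supportive and 18 in non-supportive ISEMFs, and Muc2 had 27 and 3. Krt18 had 0 and 19, Epcam 0 and 5, Krt8 0 and 4, and Vil1 7 and 8. Endothelial and mesothelial markers stayed under an RPKM of 1 in both. Over all protein-coding genes that reached an RPKM of 1 in either library, 9.25% were 2-fold higher and 8.98% were 2-fold lower in supportive ISEMFs. The part of the other cell types in the results that follow was not tested.

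All 10 genes reached an RPKM of 1 in at least 1 library, and Ltbp4 did so only in the supportive one. A gene was counted as different when its log2 ratio, with 0.1 added to each RPKM, was at least 1 in size, which is a 2-fold difference. By this rule 3 of the 10 were higher in supportive ISEMFs (Tgfb3, Ltbp3 and Ltbp4), 2 were lower (Tgfb2 and Ltbp1), and 5 were neither. Among the 9110 protein-coding genes that reached an RPKM of 1 in one or the other library, 843 (9.25%) were 2-fold higher and 818 (8.98%) were 2-fold lower, which makes 18.2% in both directions together. The median size of the log2 ratio was 1.01 over the 10 genes and 0.41 over the protein-coding genes, while the signed medians were 0.32 and -0.07. The log2 ratios of the 10 genes spanned 5.35, from -1.96 for Ltbp1 to 3.39 for Ltbp4. Of the genes counted as different, Tgfb3 at a log2 ratio of 1.21 was nearest to the 2-fold limit. Of the others, Tgfbr1 at -0.81 was nearest to it.

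**Figure D1:**
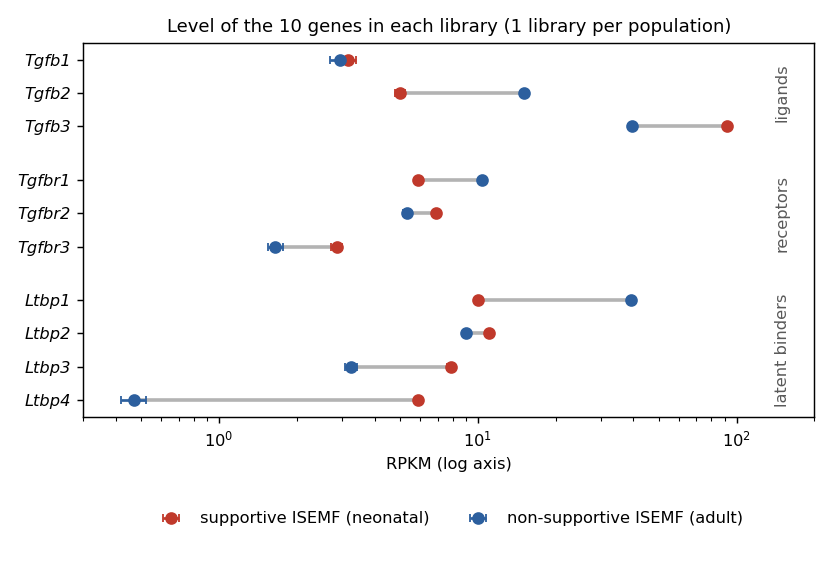
RPKM (log axis) of the 10 genes in the supportive (red) and non-supportive (blue) library, with bars for the 95% exact counting interval and grey lines joining the libraries. Tgfb3 is the highest gene in the supportive library at 91.8, and Ltbp1 and Tgfb3 lie side by side at the top of the non-supportive library at 39.3 and 39.6 on the deposited exon length.

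The 3 ligands signal through the same receptor kinases, and one way in which they differ is where and when they are made. Their genes are shown here by the 100 bases before the annotated start, because the make-up of the ligands is where several of the results turn. The sequences were read from the mm9 genome at the gene starts of the GENCODE vM1 annotation, on the coding strand of each gene, at chr7:26471921-26472020 (plus strand), chr1:188529872-188529971 (minus strand) and chr12:87419992-87420091 (minus strand). Capitals mark the letters TATAAA, the core of a TATA box, and GGGCGG on either strand, the core of a GC box.

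Tgfb1: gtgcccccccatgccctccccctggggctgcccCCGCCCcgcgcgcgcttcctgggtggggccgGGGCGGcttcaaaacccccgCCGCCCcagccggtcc
Tgfb2: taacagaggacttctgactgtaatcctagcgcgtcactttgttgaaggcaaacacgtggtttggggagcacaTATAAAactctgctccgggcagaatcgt
Tgfb3: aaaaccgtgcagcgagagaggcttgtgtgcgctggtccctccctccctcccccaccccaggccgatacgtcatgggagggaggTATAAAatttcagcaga

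TATAAA stood 28 to 23 bases before the start of Tgfb2 and 17 to 12 bases before that of Tgfb3. It was found within 250 bases before the start, on either strand, in these 2 of the 10 genes and in 12.3% of 22367 protein-coding genes. Tgfb1 had no TATAAA in this window but several copies of GGGCGG, which 39.6% of the promoters hold, and a GC content of 75.2% against 54.0% for Tgfb2 and 49.2% for Tgfb3. The octamer TGACGTCA, the cyclic AMP response element, was in the window of Ltbp1 alone among the 10 genes and in 1.91% of all promoters, and the AP-1 letters TGACTCA were in those of Tgfbr2 and Ltbp3 and in 3.85%. None of these matches overlapped. The motifs were chosen after the sequences were seen, and a match describes the letters only.

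Tgfb3, the ligand best known from palate and lung development, was the dominant ligand gene in both libraries. In mm9 it lies at chr12:87397694-87419991 on the minus strand, with 7 exon blocks (ENSMUSG00000021253). Supportive ISEMFs held 22206 reads at an RPKM of 91.8 (interval 90.6 to 93.0) and non-supportive ISEMFs 9299 reads at an RPKM of 39.6 (38.8 to 40.4). Its level was 2.32-fold higher in the supportive library (interval 2.27 to 2.38). Among all protein-coding genes it ranked 154 by RPKM in supportive ISEMFs and 589 in non-supportive ISEMFs.

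Tgfb2, which needs the co-receptor encoded by Tgfbr3 to bind Tgfbr2 with high affinity, went the other way. It lies at chr1:188447065-188529871 on the minus strand, with 10 exon blocks (ENSMUSG00000039239). The supportive library held 1920 reads at an RPKM of 5.03 (interval 4.81 to 5.26) and the non-supportive library 5586 reads at an RPKM of 15.1 (14.7 to 15.5). The level was 2.99-fold lower in supportive ISEMFs (interval 2.84 to 3.15).

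Tgfb1, the ligand most used in studies of wound repair and immune regulation and one that macrophages also make, was low in both libraries. It lies at chr7:26472021-26490096 on the plus strand, with 7 exon blocks (ENSMUSG00000002603). Supportive ISEMFs held 651 reads at an RPKM of 3.15 (interval 2.91 to 3.40) and non-supportive ISEMFs 589 reads at an RPKM of 2.93 (2.70 to 3.18). With a ratio of 1.07 (interval 0.959 to 1.20), a difference could not be detected with these reads.

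Summed over the 3 ligands, supportive ISEMFs reached an RPKM of 100.001 and non-supportive ISEMFs 57.6, a ratio of 1.74. Tgfb3 made 91.8% of that sum in supportive ISEMFs (bounds from the counting intervals 91.3% to 92.3%) and 68.7% in non-supportive ISEMFs (67.5% to 69.9%). The share of Tgfb2 was 5.03% in the former and 26.2% in the latter, and that of Tgfb1 was 3.15% and 5.09%. Tgfb3 thus made most of the ligand sum in both libraries, with a larger share of Tgfb2 in the non-supportive one.

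None of the 3 receptors differed 2-fold, although each ratio lay outside what counting error alone would give. Tgfbr1, the type I receptor kinase also called ALK5, lies at chr4:47366094-47427803 on the plus strand (ENSMUSG00000007613). Supportive ISEMFs held 3817 reads at an RPKM of 5.91 and non-supportive ISEMFs 6554 reads at an RPKM of 10.4, 1.77-fold lower in the former (interval 1.70 to 1.84). Tgfbr2, the ligand-binding type II receptor kinase, lies at chr9:115993415-116084383 on the minus strand (ENSMUSG00000032440). It had 3995 reads and an RPKM of 6.91 against 3005 reads and an RPKM of 5.35, a ratio of 1.29 (interval 1.23 to 1.36). Tgfbr1 was thus the only receptor gene of the 3 that was lower in supportive ISEMFs.

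Tgfbr3 encodes betaglycan, a co-receptor without kinase activity that presents ligand, Tgfb2 above all, to the type II receptor. It lies at chr5:107535589-107718648 on the minus strand (ENSMUSG00000029287). Supportive ISEMFs held 1523 reads at an RPKM of 2.85 and non-supportive ISEMFs 858 reads at an RPKM of 1.65, a ratio of 1.73 (interval 1.59 to 1.88). Tgfb2 and its co-receptor therefore differed in opposite directions. The 3 receptors summed to 15.7 RPKM for supportive and 17.4 for non-supportive ISEMFs. Tgfbr1 made 37.7% of this sum in the former (bounds 36.1% to 39.3%) and 59.9% in the latter (58.2% to 61.5%).

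**Figure D2:**
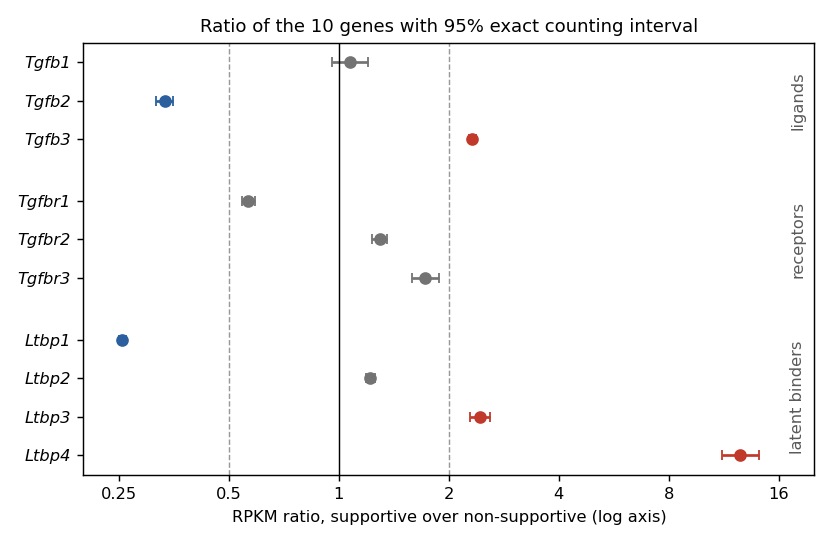
Ratio of supportive over non-supportive RPKM (log axis) of the 10 genes with its 95% exact counting interval, where dashed lines mark 2-fold and red and blue mark genes 2-fold higher and lower. Ltbp4 stands farthest to the right at 12.5 and Ltbp1 farthest to the left at 0.255, and the 3 receptors lie between the dashed lines.

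The latent binders held the highest and the lowest ratio of the 10 genes. Ltbp1, the main carrier of latent TGF-β in many fibroblasts, lies at chr17:75404908-75791852 on the plus strand, with 36 exon blocks and 5 annotated coding transcripts that the counts do not separate (ENSMUSG00000001870). Supportive ISEMFs held 10834 reads at an RPKM of 10.04 (interval 9.85 to 10.2) and non-supportive ISEMFs 41209 reads at an RPKM of 39.3 (38.9 to 39.7). Its level was 3.91-fold lower in the supportive library (interval 3.83 to 3.998).

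Ltbp4 binds latent Tgfb1 only, and weakly, and is known for its part in elastic fiber assembly. It lies at chr7:28090155-28122711 on the minus strand, with 35 exon blocks (ENSMUSG00000040488). Supportive ISEMFs held 4108 reads at an RPKM of 5.89 (interval 5.71 to 6.07) and non-supportive ISEMFs 319 reads at an RPKM of 0.470 (0.420 to 0.525). Its level was 12.5-fold higher in the supportive library (interval 11.2 to 14.1), at place 96 from the top of the log2 ratios of the 9110 protein-coding genes. The non-supportive library ranked it 9952 among protein-coding genes.

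Ltbp3, which like Ltbp1 carries all 3 ligands and is known for its role in bone and teeth, lies at chr19:5740904-5758532 on the plus strand (ENSMUSG00000024940). Supportive ISEMFs held 3544 reads at an RPKM of 7.89 (interval 7.63 to 8.15) and non-supportive ISEMFs 1416 reads at an RPKM of 3.24 (3.08 to 3.42). It was 2.43-fold higher in the former (interval 2.29 to 2.59), close to the ratio of Tgfb3.

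Ltbp2, which does not bind latent TGF-β and is known as a fibrillin-binding matrix protein, was nearly level. It lies at chr12:86124162-86217482 on the minus strand (ENSMUSG00000002020). Supportive ISEMFs held 10258 reads at an RPKM of 11.1 and non-supportive ISEMFs 8170 reads at an RPKM of 9.06, a ratio of 1.22 (interval 1.19 to 1.26). In GENCODE vM1 its exons share 764 of 8193 bases with D030025P21Rik on the opposite strand, which had 115 and 325 reads. The authors left out reads that could not be assigned to 1 gene alone. Whether the reads were counted by strand is not given in the sources used here. How many reads of such overlapping exons were left out is therefore not known.

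The sum over the 4 binders was 34.9 RPKM for supportive and 52.1 for non-supportive ISEMFs, 1.49-fold lower in the former. Ltbp1 made 28.8% of the supportive sum (bounds 27.9% to 29.7%) and 75.5% of the non-supportive sum (74.7% to 76.2%). In supportive ISEMFs the remainder was spread over Ltbp2 (31.7%), Ltbp3 (22.6%) and Ltbp4 (16.9%), while in non-supportive ISEMFs these made 17.4%, 6.23% and 0.903%. The summed ligand RPKM was 2.87 times the summed binder RPKM in supportive ISEMFs and 1.11 times in non-supportive ISEMFs. The binder sum takes the 4 genes by name and includes Ltbp2, which does not bind latent TGF-β, and Ltbp4, which binds only latent Tgfb1. It is therefore not a measure of the capacity to carry latent TGF-β. So both the ligands and the binders were of a different make-up in the 2 libraries. Tgfb3 made a larger share of the ligands in the supportive library, and Ltbp1 a larger share of the binders in the non-supportive library.

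**Figure D3:**
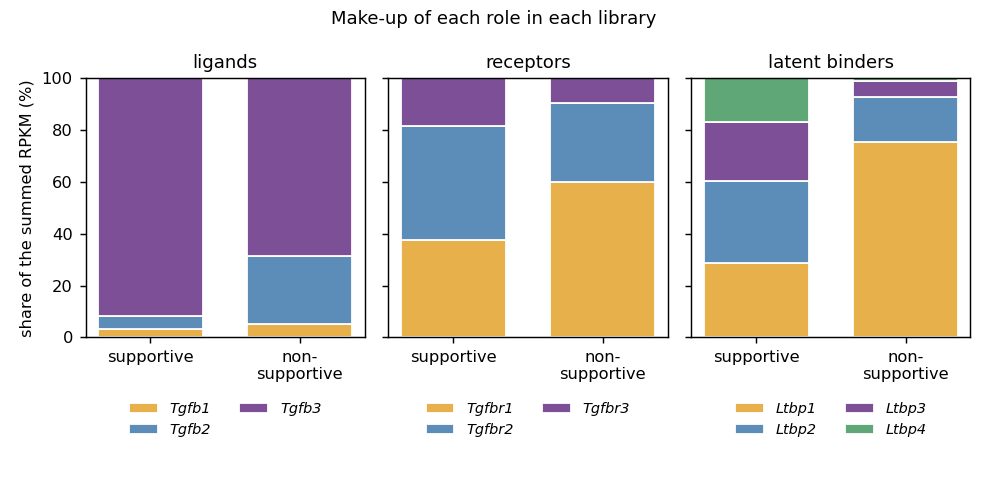
Share (%) of the summed RPKM of the 3 ligands, the 3 receptors and the 4 latent binders that each gene made in the supportive and the non-supportive library. Tgfb3 fills 91.8% of the supportive ligand bar and 68.7% of the other, and Ltbp1 fills 28.8% of the supportive binder bar and 75.5% of the other.

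Levels of different genes depend on the length by which reads are divided. The deposited length is the union of all exons in the authors' Ensembl genes, while the longest coding transcript was taken from GENCODE vM1. For Ltbp1 the deposited length is 2.26 times its longest coding transcript, and for Tgfb3 it is equal. The 2 sources differ, as the exon union of Ltbp1 is 10688 bases in GENCODE vM1 against a deposited 15101. Values on the transcript scale therefore mix 2 annotations. Per length of the longest coding transcript, a scale added after the data were seen, Tgfb3 made 90.3% and 65.4% of the ligand sum and Ltbp1 made 35.4% and 80.1% of the binder sum in supportive and non-supportive ISEMFs. The ratio of ligands to binders then became 1.59 and 0.544. The ratio of a single gene between the libraries does not depend on the length, but that of a sum does. On the transcript scale the ligand sum was 1.68-fold higher in supportive ISEMFs, the binder sum 1.73-fold lower and the receptor sum 1.21-fold lower.

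On the deposited length, the order by RPKM in the supportive library was Tgfb3, Ltbp2, Ltbp1, Ltbp3, Tgfbr2, Tgfbr1, Ltbp4, Tgfb2, Tgfb1 and Tgfbr3. The counting intervals of Tgfbr1 and Ltbp4 overlapped, and so did those of Tgfb1 and Tgfbr3. In the non-supportive library the order was Tgfb3, Ltbp1, Tgfb2, Tgfbr1, Ltbp2, Tgfbr2, Ltbp3, Tgfb1, Tgfbr3 and Ltbp4, with overlapping intervals for Tgfb3 and Ltbp1 and for Ltbp3 and Tgfb1. Per longest coding transcript, Ltbp1 at 88.9 was above Tgfb3 at 39.6 in non-supportive ISEMFs. There Ltbp2 at 17.4 and Tgfb2 at 17.0 had overlapping counting intervals. In supportive ISEMFs on that scale, Ltbp1 was above Ltbp2 (22.7 against 21.2), Ltbp4 above Ltbp3 (10.7 against 9.56) and Tgfbr1 above Tgfbr2 (9.28 against 6.91). In supportive ISEMFs Tgfb2 stood above only Tgfb1 and Tgfbr3 on both scales.

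The genes around this system were described by 5 lists, which hold 82 genes that are not among the 10. Of the 65 that reached an RPKM of 1, 17 were 2-fold higher and 8 were 2-fold lower in supportive ISEMFs, together 38.5% against 18.2% of all protein-coding genes. These lists were chosen with earlier results of these data known, and the counts describe these libraries only.

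The Smads, which carry the signal to the nucleus, and their partners had 14 expressed genes. Of these, 0 were 2-fold higher, 2 were 2-fold lower and 12 were neither, beside 9.25% higher and 8.98% lower among all protein-coding genes, and the median log2 ratio was -0.11 against -0.07 over all. Smad2, one of the receptor-activated Smads, had an RPKM of 16.1 in supportive and 16.9 in non-supportive ISEMFs, and Pmepa1, a feedback inhibitor that TGF-β induces, had 25.6 and 27.7. The pair past 2-fold was Smurf2, a ubiquitin ligase that turns over Smads and receptors, at 21.8 against 54.0, and Smad9, a Smad of the BMP branch, at 0.540 against 1.81. Smad7, the inhibitory Smad of the TGF-β branch, was 1.63-fold lower in supportive ISEMFs (interval 1.55 to 1.71), at an RPKM of 4.88 against 7.93.

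Among proteins that anchor or activate the latent complex, 5 of 14 expressed genes were 2-fold higher in supportive ISEMFs and 2 were 2-fold lower. Among all protein-coding genes these shares were 9.25% and 8.98%. The median log2 ratio of the list was 0.32. Lrrc32, which encodes GARP, a cell surface docking protein for latent TGF-β, was at 14.7 RPKM (4010 reads) in supportive and 1.92 (510 reads) in non-supportive ISEMFs. That was 7.64-fold higher (interval 6.97 to 8.40). Mmp2, a gelatinase able to release TGF-β, was at 68.5 against 22.6. The others that were 2-fold higher, named here after their values were seen, were Fbn1, the fibrillin to which the binders attach, at 113 against 37.9, and Itgb5 and Mmp14 at 21.1 against 9.33 and 86.0 against 42.6. Itgb1, the common β chain of many integrins, was at 272 against 658. The gelatinase Mmp9, which macrophages also make, had 0 reads in supportive and 387 in non-supportive ISEMFs. With the 0 reads set to a floor of 3, Mmp9 was 132.7-fold lower, and its exact interval reaches down to 107-fold. The macrophage markers were lower in supportive ISEMFs too, and their part in the value of Mmp9 was not tested. Thbs1, the activator thrombospondin 1, and Fn1, fibronectin, were near the top of both libraries, at 799 against 656 and 1087 against 850.

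Accessory receptors and extracellular inhibitors had 4 of 8 expressed genes 2-fold higher in supportive ISEMFs and 0 lower, beside 9.25% and 8.98% of all protein-coding genes. Their median log2 ratio was 1.03. Dcn, the proteoglycan decorin, which binds and sequesters TGF-β, had an RPKM of 124 in supportive against 46.5 in non-supportive ISEMFs. Fmod, the related fibromodulin, had 824 reads against 5, a ratio of 160 (interval 68.4 to 495). Cd109, a membrane-anchored TGF-β co-receptor that inhibits signaling, was 3.06-fold higher (interval 2.88 to 3.25). Bgn, biglycan, was among the highest genes of the list at 641 against 325 and lay just under 2-fold, and Tgfb1i1, the focal adhesion protein Hic-5, was at 10.4 against 13.0. The remaining gene past 2-fold, named after its values were seen, was Vasn, vasorin, at 8.28 against 3.84.

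Genes that TGF-β is known to induce went in both directions. Of 25 expressed genes, one of which is Ltbp2 itself, 7 were 2-fold higher in supportive ISEMFs, 2 were 2-fold lower and 16 were neither. Among all protein-coding genes 9.25% were higher and 8.98% lower. The median log2 ratio of the list was 0.00. Col3a1, the gene of type III collagen, had an RPKM of 272 in supportive and 26.4 in non-supportive ISEMFs, and Itga11, an integrin chain that binds collagen, had 61.3 and 6.53. Ctgf, a common readout of TGF-β signaling, was at 676 against 482, and Acta2, the smooth muscle actin of myofibroblasts, was 1.55-fold lower in supportive ISEMFs. Many of these genes also answer to other signals, and the list as a whole gave no common direction.

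**Figure D4:**
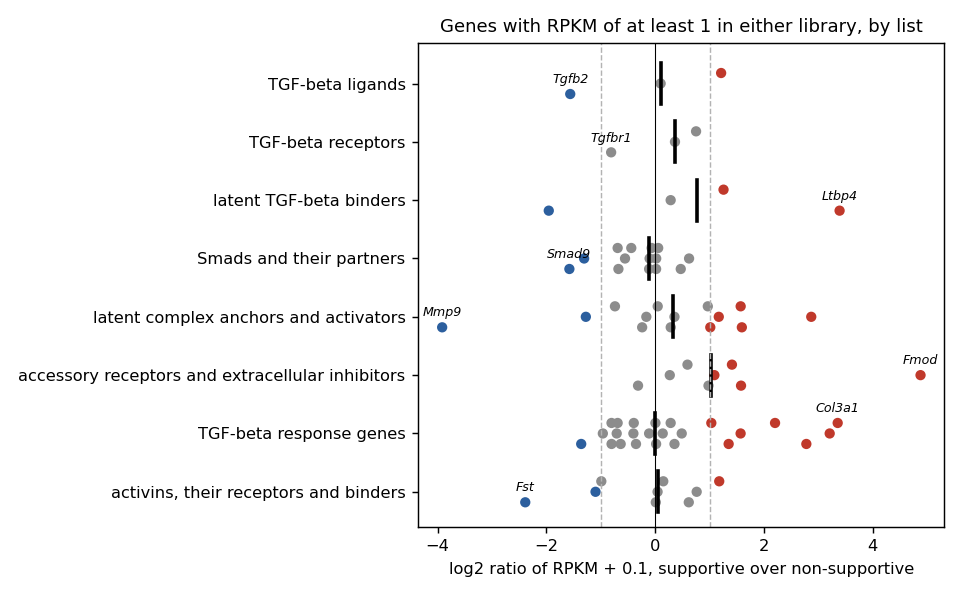
Log2 ratio of RPKM + 0.1 (supportive over non-supportive) of the genes that reached an RPKM of 1, in 8 lists, with black bars for each list's median and, of the genes shown, the one of largest ratio in size named. Red and blue mark genes 2-fold higher and lower. Col3a1 lies farthest to the right of the response genes at 3.36, around a list median of 0.00, and 1 response gene is not shown.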

How the data were processed

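RNA from 1 supportive and 1 non-supportive ISEMF culture was made into TruSeq libraries by the authors and sequenced as single-end reads. The authors aligned them to mm9 with TopHat (TopHat2 2.0.4 in the submitters' processing notes) using Ensembl genes, kept unique hits and counted reads per gene with HTSeq 0.5.4p3. The Ensembl release is not given in the sources used here. The authors deposited raw counts and RPKM values, the latter being counts divided by the length of the union of exons and by the library size, which came to 71463423 and 69449374 reads. The deposited table also holds the authors' log2 ratio, DESeq p-values and adjusted p-values, which were not used, and a shorter Wnt pathway table repeats rows of it and was not used.

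The 10 genes and the gene lists were chosen with earlier results of these data known. Log2 ratios used a pseudocount of 0.1 RPKM. A 2-fold difference was counted over protein-coding genes that reached an RPKM of 1 in one or the other library. Intervals of ratios were Clopper-Pearson intervals (exact) for the supportive share of a gene's reads, and those of levels from the exact Poisson interval, both at 95%. Bounds of a share set its gene at 1 end of its interval and the other genes at the opposite end. Named genes outside the 10 are the 3 with the highest RPKM and the 3 with the largest log2 ratio in size of each list, and others are said to be chosen afterwards. Some cell type markers, such as Epcam, Sox10, Ptprc and Itgam, were named outside this rule. Likeness of pattern was not ranked, since 2 libraries give a single ratio. With 1 library per population, edgeR and DESeq2 can test no difference and were used for scaling factors only. Coordinates came from GENCODE vM1 on the same build. The ratio, interval and 2-fold steps were tested on simulated counts that held counting error only. That test checks the code and says nothing about the spread between cultures. Scaling factors were computed in R 4.3.3 with DESeq2 1.42.0 and edgeR 4.0.16. All else was run in Python 3.11.15 with scipy 1.17.1, pandas 2.3.3 and numpy 2.4.6, and plotted with matplotlib 3.10.9. Some genes are not reported here by name, though they stay in the counts and medians of their lists.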

Additional observations from a re-analysis of the deposited data

How the results depend on the processing

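The 10 genes kept their direction and their side of the 2-fold limit under all 6 alternatives of pseudocount (1 and 0.001) and library scaling, where 37 of 60 values stayed within the counting interval and 23 moved beyond it. The 4 ways of rescaling the libraries moved no log2 ratio by more than 0.13. With a pseudocount of 1 the log2 ratio of Ltbp4 was 2.23 against 3.39. The median over the 10 genes was 0.39 when rescaled to a median log2 ratio of 0, 0.38 with TMM and 0.45 with library sizes over nuclear protein-coding genes. At a 4-fold threshold 1 of the 10 was higher (Ltbp4) and 0 lower, with 306 and 297 of all protein-coding genes. At 1.5-fold 4 of the 10 were higher and 3 lower, and the protein-coding counts were 1521 and 1732 of 9110. A pseudocount of 1 left 550 of 9110 protein-coding genes 2-fold higher. A minimum RPKM of 5 left 400 higher and 437 lower of the 4725 genes that reached it. No minimum gave 1259 higher and 1380 lower of 22379. No paired analysis was possible because each population has 1 library, and leaving out a replicate was not possible for the same reason. Depth limits little here, as Ltbp4 with 319 reads in the non-supportive library is the lowest of the 10.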

Other observations

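Activins use the same Smads as TGF-β through receptors of their own. Inhba, the gene of the activin A chain, had 20259 reads and an RPKM of 95.003 in supportive against 42164 reads and 203 in non-supportive ISEMFs, 2.14-fold lower in the former (95% exact interval from the reads 2.11 to 2.18). That is above Tgfb3 in both libraries by RPKM. Fst, the gene of follistatin, which binds and blocks activin, was 5.38-fold lower in supportive ISEMFs (interval 4.94 to 5.87), at an RPKM of 3.07 against 16.5. Inhbb, the activin B chain, was at 2.01 against 0.832. Of 9 expressed genes of the activin list, 1 was 2-fold higher, 2 were 2-fold lower and 6 were neither, with a median log2 ratio of 0.04. The shares among all protein-coding genes were 9.25% higher and 8.98% lower. Fstl1 was at 266 against 173 and the receptor gene Acvr2a at 19.2 against 11.3. Tgfbr3l was not matched in the table.

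Itgb8, the integrin chain that pairs with the αv chain to activate latent TGF-β, did not reach an RPKM of 1 and so was left out of the counts. It had 789 reads at an RPKM of 0.884 in supportive ISEMFs and 22 reads at 0.0254 in non-supportive ISEMFs, a ratio of 34.9 (interval 22.9 to 55.9). Fbn2, the fibrillin of early development, had 3 reads in supportive and 314 in non-supportive ISEMFs, a ratio of 0.00928 (interval 0.00190 to 0.0274). Both genes were named after their values were seen.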
